A study of Drosophila melanogaster with 15 samples.

Results

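In flies that already lacked CSE, the further loss of CBS was examined in the heads of males. The 5 libraries of the double deletion strains (3 of CBS-/-CSE-/-(1) and 2 of CBS-/-CSE-/-(2)) were set against the 3 libraries of the single CSE-/- strain, 8 of the 15 libraries of the study. The libraries were chosen by genotype label alone. The other 7 libraries, 5 of CBS-/- (strains (5) and (8)) and 2 of the control strain (58492), were used only where stated. All flies were naive 5-day-old males without treatment, about 100 heads per replicate. The deletions were made by CRISPR/Cas9 in strain 58492, which carries a Cas9 transgene under an Actin 5C promoter, a DNA ligase 4 mutation and mutations in yellow and white. CSE-/- is 1 strain, so effects of that line and of its genotype cannot be told apart.

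Cystathionine β-synthase (CBS) joins homocysteine to serine to give cystathionine, and cystathionine γ-lyase (CSE) cleaves cystathionine to cysteine. Together these reactions make up transsulfuration, and both enzymes can release hydrogen sulfide in side reactions. Mercaptopyruvate sulfurtransferase (MST) is a further source of hydrogen sulfide. The fly head holds the brain, the compound eyes with their photoreceptors, the olfactory organs, a layer of fat body, blood cells (haemocytes) and the front of the gut.

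Counted reads per library ranged from 11595721 to 21144213 (median 15265786) in double deletion heads and from 10285508 to 14687264 (median 12214677) in CSE-/- heads. Levels are given as CPM, counts scaled to a common library total, and adjusted by the trimmed mean of M values (TMM) over all 15 libraries, so they compare libraries within a gene and not genes with each other. A floor of 3 counts per library corresponded to 0.142 to 0.292 CPM, which covers counting error only. Libraries of 1 strain correlated at r = 0.935 to 0.977 across genes, the lowest value being between CSE-/- replicates 3 and 4. Photoreceptor markers summed to 43110 to 64800 CPM in double deletion heads and 41840 to 50390 CPM in CSE-/- heads. Testis markers summed to 3.89, 40.8 and 2.50 CPM in CBS-/-CSE-/-(1) replicates 1, 2 and 3 and to 7.06 and 3.94 CPM in CBS-/-CSE-/-(2). In CSE-/- replicates 1, 3 and 4 they summed to 63.1, 4.16 and 2.23 CPM.

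The deleted genes were examined first. CBS (Cbs, FBgn0031148, chromosome X) stood at 0.432, 2.81 and 0.742 CPM in CBS-/-CSE-/-(1) and at 0.280 and 0.353 CPM in CBS-/-CSE-/-(2), against 121, 68.9 and 92.1 CPM in CSE-/-. The groups lay far apart, with a log2 fold change of -6.57 ± 0.62 (SE) and an edgeR adjusted p of 0.00133. CSE (Cth, FBgn0000566, chromosome 2R) was at 0.865 to 1.75 CPM in double deletion heads and 0.734 to 1.22 CPM in CSE-/- heads, while the CBS-/- and control libraries had 32.8 to 67.6 and 32.4 to 38.0 CPM. All 8 libraries thus matched their labels at both genes. MST (CG12279) had 34.5 to 63.2 CPM in double deletion heads and 18.7 to 38.6 CPM in CSE-/- heads, and this difference did not pass the test (log2 fold change 0.66, edgeR adjusted p = 0.234).

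With edgeR's quasi-likelihood F test 9603 genes were tested, of which 1841 had an unadjusted p under 0.05 in either direction. Of the 9603, 166 (1.73%) passed an adjusted p of 0.05. In the double deletion strains 98 genes (1.02% of those tested) rose and 68 (0.708%) fell. The median log2 fold change was 2.44 among the genes that rose and -1.37 among those that fell, and the median over all genes tested was -0.04. In all 166 the 5 double deletion libraries lay entirely on one side of the 3 CSE-/- libraries, an arrangement that 12.8% of all genes tested showed (6.82% higher and 5.96% lower). Against CSE-/-, strain (1) alone gave the same sign for 165 of 165 called genes that could be tested and strain (2) alone for 164 of 164. The call itself was kept for 75 of these genes with strain (1) alone and for 82 with strain (2) alone. These comparisons share the 3 CSE-/- libraries, so their shared sign is no independent support. The set of calls depended on single libraries: 26 genes fell and 27 rose without CSE-/- replicate 1, 23 and 30 without CSE-/- replicate 3, 32 and 118 without CSE-/- replicate 4, 32 and 64 without CBS-/-CSE-/-(1) replicate 2, 45 and 69 without CBS-/-CSE-/-(1) replicate 3, and 40 and 66 without CBS-/-CSE-/-(2) replicate 4. When levels were taken relative to library totals in place of TMM scaling, which moved the fold changes by a median of 0.222 on the log2 scale, 68 genes fell and 57 rose. With each of the 8 libraries left out in turn, 36 of the 166 genes (21 that rose and 15 that fell) kept their call every time. Of the genes named below these were Cbs, to, CG11854, mbl, MsrA, E(spl)mbeta-HLH, Ir76a, TotC, TotM, Ugt37A3, CG13658, CG15043, CG15044, CG15784, CG18179, CG31380, Obp56h, Cpr51A, NimC1, Traf6, Ance-5, CG42846, CG31436, CG4306, CG11905, Kaz1-ORFB, ChLD3 and snRNA:U2:34ABa. The others lost it without at least 1 library, most often CSE-/- replicate 1 or replicate 3. Among the genes named below, GstD1, Dgp-1 and Drip lost theirs in all 8 such fits, and tobi, Tat, Cyp313a1, CG3552, Cbp53E and for in 7 of 8. Over all 20 alternatives run, 26 genes kept their call wherever they could be tested.

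**Figure D1:**
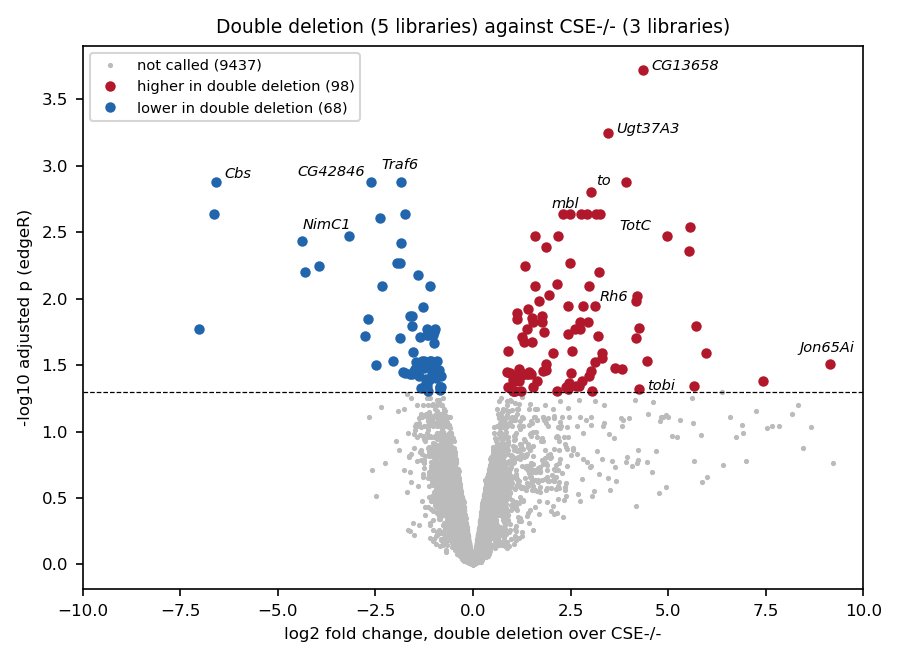
Log2 fold change of double deletion over CSE-/- heads (x axis) against -log10 of the edgeR adjusted p (y axis) for the 9603 genes tested, 1 point per gene. The 98 genes that rose reach further from 0 than most of the 68 that fell, with Cbs among the lowest; the dashed line marks an adjusted p of 0.05.

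Takeout (to, FBgn0039298, chromosome 3R) rose, a secreted carrier protein of the juvenile hormone-binding type that is under circadian control and is known for roles in feeding and male courtship. It was at 925, 1393 and 1374 CPM in CBS-/-CSE-/-(1) and at 795 and 1457 CPM in CBS-/-CSE-/-(2), against 120.3, 144 and 174 CPM in CSE-/-. Every double deletion library was thus more than 4 times above every CSE-/- library. The log2 fold change was 3.01 ± 0.30 (SE, edgeR adjusted p = 0.00157). Levels of to in CBS-/- heads (65.1 to 118 CPM) and in control heads (93.2 and 186 CPM) overlapped with one another. The effect of losing CBS differed between flies without and with CSE, by 3.49 on the log2 scale (edgeR adjusted p = 0.000567). Of the 15 circadian clock genes examined, to was the 1 that passed the test, and the median over the list was -0.23. The neighbouring gene CG11854, of the same protein family and 0.352 kb downstream of to, stood at 4.70 to 7.0 CPM in double deletion heads and at 0.895 to 1.10 CPM in CSE-/- heads (log2 fold change 2.49, edgeR adjusted p = 0.00229).

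**Figure D2:**
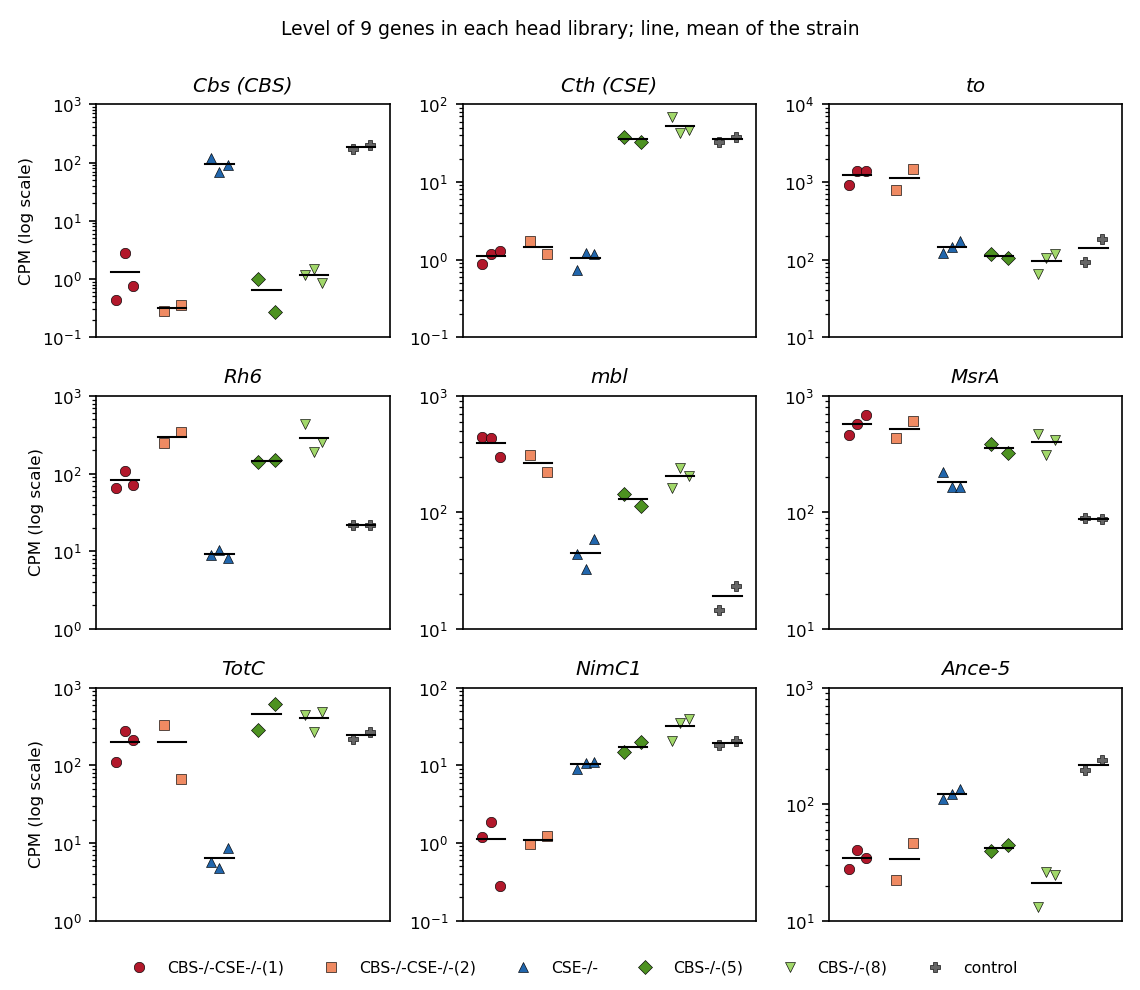
CPM on a log scale of 9 genes in all 15 head libraries, 1 point per library, grouped by strain, with a line at the strain mean; the double deletion strains are at the left, followed by CSE-/-, CBS-/- and control. takeout (to) is high in the double deletion strains alone, Rh6, mbl and MsrA are high in all CBS-deleted strains, TotC is low in CSE-/- alone and NimC1 is lowest in the double deletion strains.

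Rh6 (FBgn0019940, chromosome 3R) encodes the green-sensitive rhodopsin of the R8 photoreceptors. Its level was 66.1, 109 and 71.8 CPM in CBS-/-CSE-/-(1) and 251 and 343 CPM in CBS-/-CSE-/-(2), against 8.89, 10.4 and 8.18 CPM in CSE-/-. Both double deletion strains exceeded CSE-/-, and strain (2) lay above strain (1) in every library. The log2 fold change was 4.18 ± 0.62 (SE, edgeR adjusted p = 0.0104), and the adjusted p reached 0.0573 without CSE-/- replicate 1 and 0.0647 without CSE-/- replicate 3. Among 31 phototransduction genes tested, Rh6 was the 1 called by edgeR, and the list's median was -0.05. By an unadjusted edgeR p under 0.05, 5 of the list were higher and 1 lower. A further method, DESeq2, called 4 higher and 1 lower. The rhodopsins Rh3, Rh4, Rh5 and ninaE, named here after their values were seen, had log2 fold changes of 0.25, 0.25, 0.77 and 0.08 and did not pass. Trissin, which encodes a neuropeptide and ends within 0.1 kb of Rh6 on the other strand, had 21.1 to 39.2 CPM in double deletion heads and 8.92 to 12.2 CPM in CSE-/- heads (log2 fold change 1.39, edgeR adjusted p = 0.0170). The strand setting of the counting is not given in the sources used here, so reads of these convergent neighbours may not be fully separated.

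Further genes that rose, mbl, MsrA, E(spl)mbeta-HLH and Ir76a, were chosen after their values were seen. The gene mbl (muscleblind, chromosome 2R), an RNA-binding regulator of alternative splicing, was at 441, 436, 302, 311 and 222 CPM in the 5 double deletion libraries, against 44.0, 32.4 and 58.5 CPM in CSE-/-. The groups were separated by a factor of 3 or more, and the log2 fold change was 2.92 ± 0.33 (SE, edgeR adjusted p = 0.00231). MsrA, encoding the methionine sulfoxide reductase that repairs oxidised methionine residues in proteins, stood at 437 to 682 CPM in double deletion heads and 164 to 222 CPM in CSE-/- heads (log2 fold change 1.59 ± 0.23, edgeR adjusted p = 0.00806). E(spl)mbeta-HLH, a transcriptional repressor induced by Notch, had 13.8 to 25.0 CPM in double deletion heads and 4.25 to 5.36 CPM in CSE-/- heads. Ir76a, a chemosensory receptor of the ionotropic family, had 8.07 to 15.1 CPM in double deletion heads and 1.81 to 2.72 CPM in CSE-/- heads. Both of the last genes passed the test, with log2 fold changes of 1.87 and 2.17 (edgeR adjusted p = 0.00409 and 0.0034).

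For Rh6, mbl, MsrA, E(spl)mbeta-HLH and Ir76a the loss of CBS could also be read in flies that kept CSE, in libraries that the comparison above does not use. All 5 belong to the 8 genes called higher in both comparisons, and all but Rh6 were chosen after their values were seen. Their shared calls are thus no independent support. In the comparison of CBS-/- with control, where 634 of 9496 genes (6.68%) were called, 137 (1.44%) higher and 497 (5.23%) lower, all 5 were called higher, Rh6 by 3.396, mbl by 3.17 and MsrA by 2.09 on the log2 scale (edgeR adjusted p = 0.00754, 0.00384 and 0.00218). MsrA stood at 314 to 473 CPM in CBS-/- heads and at 87.5 and 88.8 CPM in control heads, so that CSE-/- heads lay between the control and the CBS-deleted strains. Rh6 was at 142 to 436 CPM in CBS-/- heads and 21.7 CPM in both control libraries, above its level in CSE-/-. Over all 98 genes that rose in the double deletion, 8 were also called higher in CBS-/- against control and 5 were called lower, and 62 of the 95 that could be tested had the same sign. Of all genes tested in both comparisons, 43.1% had the same sign. The calls of CBS-/- against control depended on the 2 control libraries and on CBS-/-(8) replicate 1: without control replicate 3, 36 genes were lower and 7 higher, without control replicate 1, 285 and 68, and without CBS-/-(8) replicate 1, 997 and 477. Without control replicate 3 all 5 genes lost their call there, with edgeR adjusted p-values of 0.131 for Rh6, 0.0513 for mbl and MsrA, 0.325 for E(spl)mbeta-HLH and 0.142 for Ir76a. Rh6 (0.0572), Ir76a (0.108) and E(spl)mbeta-HLH (0.0556) also lost it without control replicate 1, and E(spl)mbeta-HLH without either CBS-/-(5) library or without CBS-/-(8) replicate 2 or 5.

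Genes that fell in the double deletion were set against the same comparison. Of the 68, 55 of the 63 tested had the same sign in CBS-/- against control, 18 were called lower there and 1, CG3552, was called higher. Besides Cbs these 18 included Ance-5, a member of the angiotensin-converting enzyme family, with 27.9, 40.7, 34.5, 22.1 and 46.1 CPM in double deletion heads against 111, 122 and 136 CPM in CSE-/- heads. Its log2 fold change was -1.85 ± 0.23 (SE, edgeR adjusted p = 0.00384), and in CBS-/- against control it was -2.91 (edgeR adjusted p = 0.00433). CG42846 showed the same order, with 4.13 to 6.82 CPM in double deletion heads, 27.6 to 46.4 CPM in CSE-/- heads, 6.09 to 12.1 CPM in CBS-/- heads and 42.7 and 74.8 CPM in control heads. Kaz1-ORFB, a Kazal-type protease inhibitor, had 6.85 to 11.0 CPM in double deletion heads and 23.6 to 46.1 CPM in CSE-/- heads. CG4306, CG31436 and the gene FBgn0036125, which matched no symbol, also fell in both comparisons, by 1.95, 2.37 and 2.70 on the log2 scale in the double deletion. Mtp (microsomal triglyceride transfer protein, needed to load lipid onto lipoproteins) and Glt (glutactin, a basement membrane protein) fell by 1.00 and 1.30 in the double deletion and by 1.06 and 1.47 in CBS-/- against control. Of the 26 genes called the same way in both comparisons, 3 (Cbs, CG42846 and CG9928) kept their call in CBS-/- against control without control replicate 3, and 15 without control replicate 1.

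**Figure D3:**
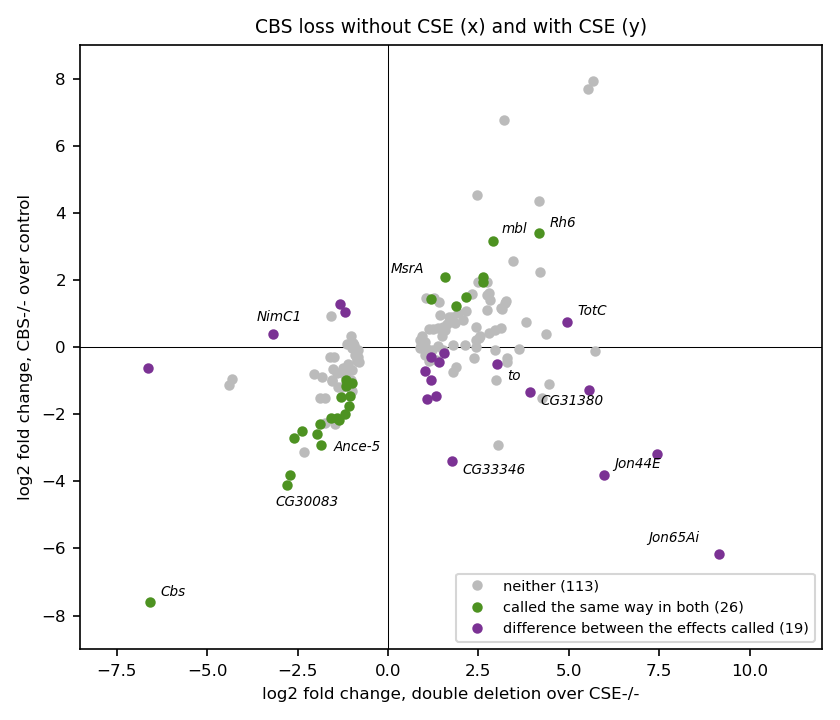
Log2 fold change of double deletion over CSE-/- (x axis) against log2 fold change of CBS-/- over control (y axis) for the called genes that could be tested in both, 1 point per gene. Green marks 26 genes called the same way in both comparisons, mostly in the lower left, and purple marks 19 genes for which the difference between the effects passed the test.

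The difference between the effects of losing CBS without and with CSE was tested for every gene over all 15 libraries. It passed for 97 of 9927 genes (0.977%), with a positive difference for 72 (0.725%) and a negative one for 25 (0.252%). Of these, 22 were among the 166, comprising 17 genes that rose in the double deletion and 5 that fell. Without control replicate 3 the difference was positive for 22 and negative for 7 genes. Besides to, the called genes with the smallest adjusted p for this difference were CG31380, CG33346, Jon65Ai and ACXD, an adenylyl cyclase. CG31380 was at 3.42 to 6.03 CPM in double deletion heads and 0.192 to 0.425 CPM in CSE-/- heads, whereas CBS-/- heads had 1.28 to 4.04 CPM and control heads 4.58 and 9.94 CPM. ACXD was at 11.2 to 19.9 CPM in double deletion heads and 5.31 to 8.08 CPM in CSE-/- heads, but was lower in CBS-/- heads (11.8 to 23.9 CPM) than in control heads (35.1 and 44.5 CPM). CG33346 likewise rose in the double deletion (6.99 to 12.7 CPM, against 2.62 to 3.53 CPM in CSE-/-) and was lower in CBS-/- than in control.

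Where a gene rose in the double deletion, its control level was not always that of CSE-/-. The mean of the 2 control libraries was above that of CSE-/- for 76 of the 98 genes that rose. It was below that of CSE-/- for 30 of the 68 that fell. For 31 of the 98 and 16 of the 68, the control mean was nearer to the double deletion than to CSE-/-. The stress-induced humoral factor TotC (Turandot C) is an example. Its level was 109, 275, 210, 328 and 67.1 CPM in the 5 double deletion libraries, against 5.66, 4.73 and 8.61 CPM in CSE-/-, a log2 fold change of 4.96 ± 0.60 (SE, edgeR adjusted p = 0.0034). CBS-/- heads had 272 to 618 CPM and control heads 218 and 268 CPM, so that CSE-/- was the strain that stood apart. TotM, of the same family, had 50.4 to 94.4 CPM in double deletion heads and 4.16 to 9.88 CPM in CSE-/- heads (log2 fold change 3.15, edgeR adjusted p = 0.00231), but its control level of 9.90 and 11.7 CPM lay just above CSE-/-. TotA had 11.6, 55.1, 24.6, 48.4 and 1.00 CPM in double deletion heads against 1.25, 1.15 and 1.38 CPM in CSE-/- heads; here the groups overlapped and the test was not passed (edgeR adjusted p = 0.0743). TotX did not pass either (log2 fold change 0.33). In all, 2 of the 4 Turandot genes tested rose. Members of this family resemble one another in sequence, and how reads shared between them were counted is not given in the sources used here.

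NimC1 (Nimrod C1, FBgn0259896, chromosome 2L), a phagocytosis receptor of plasmatocytes, fell. It stood at 1.21, 1.84 and 0.278 CPM in CBS-/-CSE-/-(1) and 0.979 and 1.24 CPM in CBS-/-CSE-/-(2), against 8.89, 10.9 and 11.2 CPM in CSE-/-. Every library of CBS-/- (14.8 to 39.2 CPM) and of the control (18.3 and 20.4 CPM) was above all of these. The log2 fold change was -3.17 ± 0.39 (SE, edgeR adjusted p = 0.0034), and the effect of losing CBS differed from that in flies with CSE by -3.56 (edgeR adjusted p = 0.00741). Of the 7 haemocyte markers tested, NimC1 was the 1 called, the median being -0.15. Hml, a defining haemocyte marker named after its values were seen, had 70.3 to 144 CPM in double deletion heads and 55.4 to 123 CPM in CSE-/- heads. The marker sum was 389.6 to 513 CPM in double deletion heads and 339 to 433 CPM in CSE-/- heads (exact two-sided permutation test over 8 libraries, p = 0.25). In whole heads, fewer cells of a type and less RNA per cell cannot be told apart.

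Traf6, Tep2 and Stat92E, which fell, were chosen after their values were seen and stand for no group. Traf6, an adaptor of immune and stress kinase signalling, had 7.55 to 9.55 CPM in double deletion heads and 25.5 to 36.8 CPM in CSE-/- heads (log2 fold change -1.84 ± 0.17, edgeR adjusted p = 0.00133). Tep2, a thioester-containing protein, had 117 to 193 CPM in double deletion heads and 324 to 420 CPM in CSE-/- heads (log2 fold change -1.16). Stat92E, the transcription factor of the JAK/STAT pathway, of which Turandot genes are known targets, had 22.0 to 32.2 CPM in double deletion heads and 46.1 to 54.6 CPM in CSE-/- heads (log2 fold change -0.98 ± 0.16, edgeR adjusted p = 0.0170). None of these 3 was called in CBS-/- against control. Antimicrobial peptides showed no edgeR call among 22 tested: 7 had an unadjusted p under 0.05 upwards and 1 downwards, DESeq2 called 4 higher and 1 lower, 19 were positive and the median was 0.80. The most abundant of them, BomBc2, had 1461 to 3845 CPM in double deletion heads and 625 to 1425 CPM in CSE-/- heads (log2 fold change 0.97, edgeR adjusted p = 0.217), and Drsl5 had a log2 fold change of -0.92 (edgeR adjusted p = 0.148).

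Detoxification enzymes moved in both directions. Among 32 glutathione S-transferases, which couple glutathione to foreign or oxidised compounds, 3 rose and none fell by edgeR. The called share was 9.38%, against 1.73% of all genes tested. By an unadjusted edgeR p under 0.05, 9 were higher and 2 lower, and DESeq2 called 5 higher and 1 lower. GstD1 had 773 to 1010 CPM in double deletion heads and 433 to 516 CPM in CSE-/- heads (log2 fold change 0.89, edgeR adjusted p = 0.0464), and GstE7 had 37.2 to 58.9 CPM in double deletion heads and 21.2 to 26.9 CPM in CSE-/- heads (1.02, adjusted p = 0.0379). GstD5 stood at 1.88 to 12.3 CPM in double deletion heads and 0.213 to 0.512 CPM in CSE-/- heads (4.16, adjusted p = 0.0198). The median of the list was 0.20, or 0.03 on library totals. With each of the 8 libraries left out in turn, GstD1 lost its call in 8 fits, GstE7 in 5 and GstD5 in 3. Ugt37A3, a UDP-glycosyltransferase, was at 15.4, 11.0, 17.9, 15.8 and 22.1 CPM in double deletion heads, against 1.32, 1.79 and 1.28 CPM in CSE-/- heads. It showed one of the lowest adjusted p-values of all (log2 fold change 3.46 ± 0.27, edgeR adjusted p = 0.000566) and was the 1 gene called by edgeR of 23 in its family. Of these 23, 3 were higher and 5 lower by an unadjusted edgeR p under 0.05. DESeq2 called 2 of the family higher and 2 lower.

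Of 72 cytochrome P450 enzymes tested, 4 fell and 1 rose, while 32 had positive and 40 negative fold changes with a median of -0.05, close to that of all genes tested. DESeq2 called 5 higher and 5 lower. The share called by edgeR was 6.94%, against 1.73% of all genes tested. Cyp6t1 had 17.97 to 33.03 CPM in double deletion heads and 46.2 to 74.6 CPM in CSE-/- heads, Cyp4ac1 had 17.8 to 43.1 CPM in double deletion heads and 72.1 to 75.4 CPM in CSE-/- heads, and Cyp12a5 had 8.89 to 16.4 CPM in double deletion heads and 26.4 to 31.7 CPM in CSE-/- heads. These 3 were also called lower in CBS-/- against control. Cyp313a1 had 68.9 to 134 CPM in double deletion heads and 168 to 230 CPM in CSE-/- heads and was not called there. Cyp9f3, in the other direction, rose, with 31.4 to 48.1 CPM in double deletion heads and 16.6 to 20.0 CPM in CSE-/- heads. The metallothionein MtnE, a metal-binding protein, rose at a low level (3.41 to 5.94 CPM in double deletion heads, 1.02 to 1.70 CPM in CSE-/- heads, log2 fold change 1.81, edgeR adjusted p = 0.0178). All 6 metallothioneins had positive fold changes, and the other 5 did not pass by edgeR. DESeq2 called 2 of this family higher and 0 lower.

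The pathways next to the deleted enzymes held few calls. Of 10 transsulfuration and sulfide genes tested, Cbs was the 1 called by edgeR. In this list 2 were higher and 1 lower by an unadjusted edgeR p under 0.05, and DESeq2 called 1 higher and 1 lower. None of 17 methionine cycle and folate genes, 5 serine synthesis genes and 19 antioxidant and glutathione genes passed, with medians of 0.01, -0.03 and 0.10, or -0.17, -0.30 and -0.15 on library totals. By an unadjusted edgeR p under 0.05, 5, 1 and 1 of them were higher and 3, 0 and 2 lower, and DESeq2 called 0, 0 and 1 higher and 1, 0 and 1 lower. Shmt, which passes the one-carbon unit of serine to folate, had 791 to 1283 CPM in double deletion heads and 404 to 773 CPM in CSE-/- heads (log2 fold change 0.71, edgeR adjusted p = 0.217), and pug, a folate enzyme, had 312 to 611 CPM in double deletion heads and 480.4 to 1180.0 CPM in CSE-/- heads (-0.90, adjusted p = 0.188). CG6287, of serine synthesis, and the antioxidant enzymes Sod1 and Trxr1 had log2 fold changes of -0.11, 0.30 and 0.52. In tyrosine breakdown, Tat (tyrosine aminotransferase) rose, with 473 to 826 CPM in double deletion heads and 299 to 324 CPM in CSE-/- heads (log2 fold change 1.06, edgeR adjusted p = 0.0497), the 1 edgeR call of 9 genes. Of these 9, 3 were higher and 1 lower by an unadjusted edgeR p under 0.05, and DESeq2 called 3 higher and 1 lower.

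Genes of memory and synapse were examined because the study asked how the deletions affect learning. The list of 26 was taken from the study's own text, which drew on these libraries, and is not independent evidence of a direction. All but 2 of the 26 had negative fold changes, and the median was -0.73 against -0.04 over all genes tested. An unadjusted edgeR p under 0.05 was reached by 17 of the 26, and in either direction by 1841 of all 9603 genes tested. On library totals all 26 were negative, with a median of -0.98 against -0.27 over all genes. After adjustment over all genes 1 passed, teq (tequila), a secreted protease known for a role in long-term memory. It had 228, 175, 179, 133 and 196 CPM in double deletion heads, against 318, 442 and 404 CPM in CSE-/- heads (log2 fold change -1.097 ± 0.20, edgeR adjusted p = 0.0294), and lost the call without CSE-/- replicate 1 (adjusted p = 0.0530), 3 (0.0841) or 4 (0.0761), CBS-/-CSE-/-(1) replicate 2 (0.0656) or 3 (0.0611), or CBS-/-CSE-/-(2) replicate 4 (0.0642). In CBS-/- against control, 18 of the 26 were called lower, with a median of -1.34, but teq was not. The foraging gene (for), a cGMP-dependent protein kinase known for its part in feeding behaviour, and the neuronal calcium-binding protein Cbp53E were chosen after their values were seen. They had 51.6 to 77.3 and 8.62 to 13.3 CPM in double deletion heads, against 93.7 to 113 and 18.5 to 26.4 CPM in CSE-/- heads, and fell by 0.83 and 0.98 on the log2 scale (edgeR adjusted p = 0.0464 and 0.0368). Neuron markers, 12 tested, held no call by edgeR (4 lower by unadjusted p) or DESeq2. Of the 12, 10 had negative and 2 positive fold changes, and the median was -0.40, or -0.665 on library totals. The sum of these markers was 328 to 420.1 CPM in double deletion heads and 358 to 557 CPM in CSE-/- heads (exact two-sided permutation p = 0.536). Glia markers, 13 tested, held no edgeR call (4 lower by unadjusted p, 1 by DESeq2), but their sum was lower in every double deletion library (2058 to 2596 CPM) than in every CSE-/- library (2737 to 3205 CPM; exact two-sided permutation p = 0.0179 over 8 libraries, the smallest that 5 against 3 can give). The exact permutation p of the glia sum was 0.0536 on library totals. It was 0.0571 without CBS-/-CSE-/-(1) replicate 3 and 0.0952 without CSE-/- replicate 3. The part of this sum in the genes that fell was not tested.

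Digestive enzymes were among the largest increases. Jon65Ai, Jon99Fi and Jon44E, serine proteases of the Jonah family that are secreted in the midgut, stood at 0.778 to 117, 0.951 to 69.8 and 2.59 to 46.6 CPM in double deletion heads, against 0 to 0.128, 0 to 0.294 and 0.147 to 0.637 CPM in CSE-/- heads. In CSE-/- heads Jon65Ai was within the floor of 3 counts in each library, so its mean over the 5 double deletion libraries was at least 201-fold higher; the lowest of these libraries, at 0.778 CPM, lay much nearer to that floor. Within the double deletion the spread was wide: CBS-/-CSE-/-(1) replicate 1 was the lowest and CBS-/-CSE-/-(2) replicate 2 the highest for each of the 3 genes. The protease-like genes CG18179, CG18180 and CG1304 rose as well, with log2 fold changes of 5.55, 4.46 and 5.72 (edgeR adjusted p = 0.00286, 0.0297 and 0.0162). CG18180 was at 2203, 1585, 1006, 2471 and 1354 CPM in double deletion heads, against 96.0, 7.03 and 128 CPM in CSE-/- heads, again without overlap. Also called higher were Jon99Ci, the gut lysozyme LysD and tobi, an α-glucosidase that responds to insulin-producing cells. tobi had 147, 234, 412, 1036 and 1737 CPM in double deletion heads, against 33.5, 16.2 and 60.1 CPM in CSE-/- heads (log2 fold change 4.25 ± 0.91, edgeR adjusted p = 0.0478), while control heads had 2255 and 2836 CPM.

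The Jonah proteases above are themselves on the list of midgut markers, while tobi is on the fat body list. The midgut list held 38 genes, 33 of which were tested: 31 had positive fold changes with a median of 2.16, the 4 that rose were Jon65Ai, Jon99Fi, Jon44E and Jon99Ci, and 2 markers were at 0 in all 8 libraries. The summed level was 24010, 17260, 22580, 50610 and 25250 CPM in the double deletion libraries, against 8153, 2703 and 16480 CPM in CSE-/-, without overlap (log2 difference 1.87, exact two-sided permutation p = 0.0179 over 8 libraries, the smallest possible). The difference was 1.17 without CSE-/- replicate 3 and 2.47 without CSE-/- replicate 4. The sum also differed between strains elsewhere, with 235 to 667 CPM in CBS-/-(5), 12080 to 42810 CPM in CBS-/-(8) and 8570 to 23910 CPM in the control. Of the 98 genes that rose, 24 (24.5%) were at least 10-fold lower in CBS-/-(5) than in CBS-/-(8), as were 25 of the 33 midgut markers tested (75.8%), none of the 68 genes that fell, and 2.22% of all genes tested. The part of the midgut in the increases was not tested. The sums of the flight muscle, fat body, photoreceptor and testis markers differed by 0.18, 0.11, 0.27 and -0.38 on the log2 scale between double deletion and CSE-/- heads (exact two-sided permutation p = 0.339, 0.714, 0.143 and 0.821 over 8 libraries), and that of the male reproductive tract by 0.54 (p = 0.0536). The testis difference was 1.08 without CSE-/- replicate 1. On library totals the flight muscle, fat body, photoreceptor and testis sums differed by -0.04, -0.11, 0.05 and -0.60. Most single markers did not follow the TMM-scaled sums of flight muscle and fat body. In flight muscle 11 of 14 were negative and 3 positive (median -0.23), and in fat body 10 of 14 were negative and 4 positive (median -0.33).

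**Figure D4:**
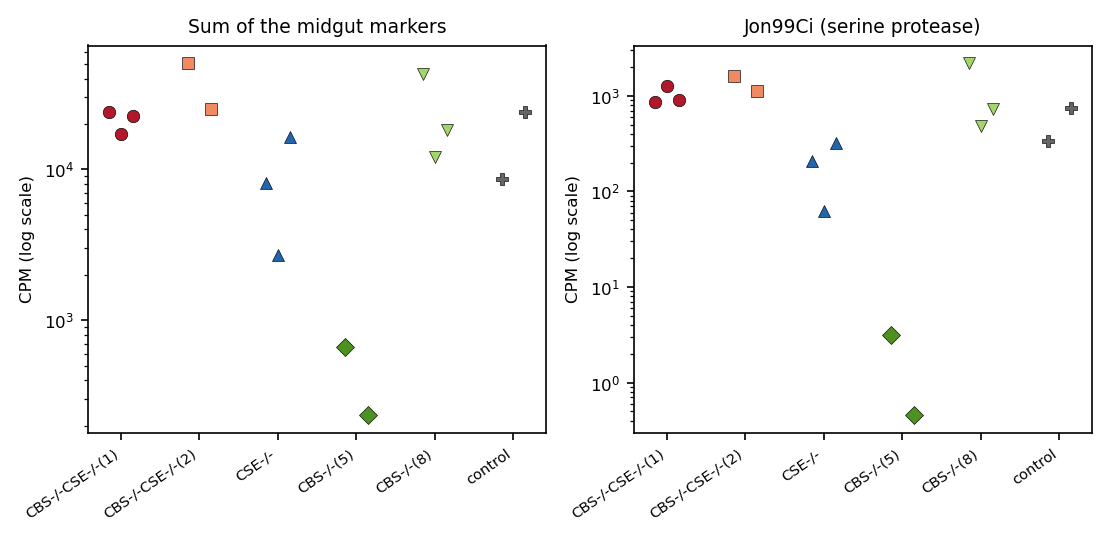
Summed CPM of the 38 midgut markers (left) and CPM of the Jonah protease Jon99Ci (right), both on log scales, 1 point per head library, by strain. The 5 double deletion libraries lie above the 3 CSE-/- libraries in both panels, and the 2 libraries of CBS-/-(5) lie far below all others.

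Called genes made up 1.43% of the genes tested on 2L, 1.62% on X, 1.82% on 3L, 1.86% on 3R, 1.90% on 2R and 1.27% (1 of 79) on chromosome 4. Around the deletions, 2 of 34 genes tested within 500 kb of CBS (CG1304 and Cyp6t1) and 2 of 105 within 500 kb of CSE (GstE7 and Dgp-1, a GTP-binding protein) were called, in all 4 genes. The densest group lay on 3R around to. Within 75 kb of CG13659, 11 of 38 genes tested were called, 9 higher and 2 lower, and no window elsewhere of this size around a called gene held more than 3. This window was found after the values were seen and has no test. Coordinates are those of the BDGP6 annotation.

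The first called genes in the window are to and CG11854 (chr3R:25240180-25243262) and the last is tobi (chr3R:25344761-25346921). Within it lies a 48.9 kb run of 22 annotated genes from CG11878 to CG10562. Many genes of this run are known as members of the ecdysteroid kinase-like family, enzymes thought to phosphorylate steroids and foreign compounds. Of these, 20 were tested, 6 rose and 2 fell. CG13658 had the smallest adjusted p of all 9603 genes, with 12.2, 10.8, 7.23, 10.5 and 10.9 CPM in double deletion heads against 0.441, 0.512 and 0.531 CPM in CSE-/- heads (log2 fold change 4.37 ± 0.29, edgeR adjusted p = 0.000191). CG11878 was at 31.7 to 137 CPM in double deletion heads and 1.47 to 6.91 CPM in CSE-/- heads, CG31288 at 53.8 to 162 CPM in double deletion heads and 6.40 to 23.4 CPM in CSE-/- heads, and CG13659 at 5.21 to 16.2 CPM in double deletion heads and 1.40 to 2.23 CPM in CSE-/- heads. The next 2 genes on the same strand went the opposite way. CG31370 had 0.562 to 1.73 CPM in double deletion heads and 2.79 to 4.41 CPM in CSE-/- heads, and CG31436 had 14.2 to 26.3 CPM in double deletion heads and 64.6 to 129.9 CPM in CSE-/- heads. Control heads had 158 and 266 CPM of CG31436 and 6.19 and 10.1 CPM of CG13658, so that the control was nearer to CSE-/- for CG31436 and nearer to the double deletion for CG13658. Genes of this family resemble one another, and reads that fit several of them may be split between neighbours.

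**Figure D5:**
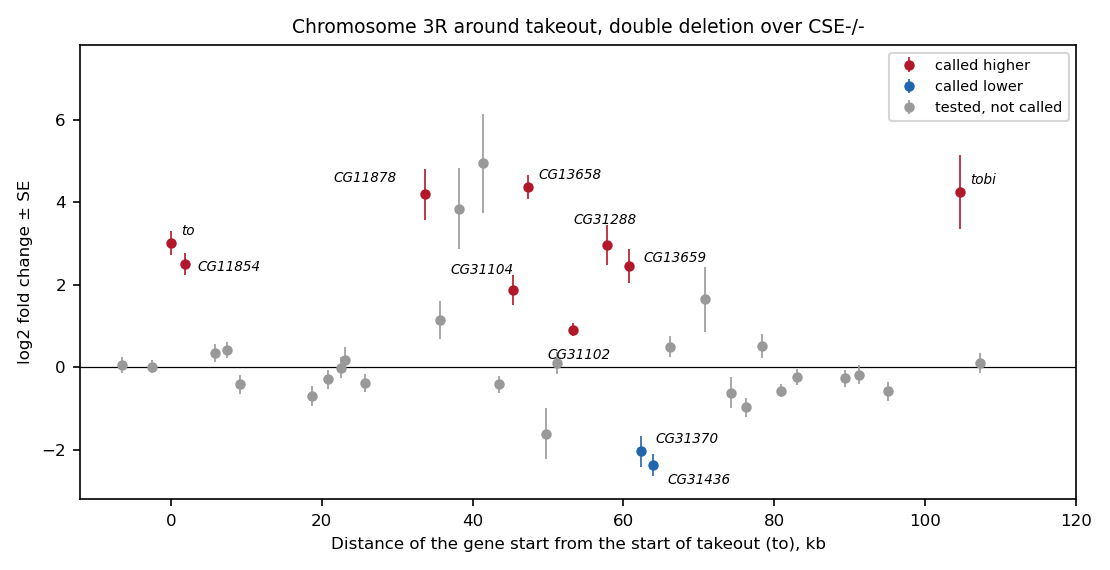
Log2 fold change of double deletion over CSE-/- heads with its SE (y axis) for each gene tested in the 3R window, by the distance of its start from that of takeout in kb (x axis). The run of kinase-like genes holds 6 red points above 0 and, next to them, the 2 blue points CG31370 and CG31436; outside the run, genes other than to, CG11854 and tobi lie between -0.70 and 0.42.

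Neighbouring genes elsewhere also changed together or in opposition. In all, 17 pairs of called genes overlapped or lay within 3 kb of each other, 6 of them in opposite directions. CG9928 fell (92.5 to 153 CPM in double deletion heads, 222 to 317 CPM in CSE-/- heads), while CG16978, next to it on the same strand, rose (98.8 to 169 CPM in double deletion heads, 43.4 to 57.8 CPM in CSE-/- heads). MtnE and Stat92E were neighbours of opposite direction too. CG15043 and CG15044 on the X rose together, CG15043 with 121 to 244 CPM in double deletion heads and 28.9 to 42.0 CPM in CSE-/- heads. Of the 164 called genes with a position, 52 overlapped another annotated gene, and reads of overlapping genes may not be fully separated.

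Among genes expressed at higher levels, CG15784 rose to 678, 335, 769, 611 and 626 CPM in double deletion heads, against 90.5, 69.5 and 100.6 CPM in CSE-/- heads (log2 fold change 2.78 ± 0.30, edgeR adjusted p = 0.00231). Rab32, a small GTPase of lysosome-related organelles such as the eye's pigment granules, had 403 to 508 CPM in double deletion heads and 202 to 229 CPM in CSE-/- heads, while CBS-/- and control heads had 551 to 625 and 374 to 432 CPM. Obp56h, an odorant-binding protein, rose (12.4 to 16.1 CPM in double deletion heads, 3.61 to 5.56 CPM in CSE-/- heads), the 1 edgeR call of 28 in its family, and Cpr51A was the 1 called of 28 cuticular proteins, with 17.8 to 24.0 CPM in double deletion heads and 6.97 to 8.92 CPM in CSE-/- heads. DESeq2 called 2 odorant-binding proteins higher and 2 lower, and 1 cuticular protein higher and 2 lower. On the side of the genes that fell, Nepl21, a neprilysin-like peptidase, had 44.2 to 75.2 CPM in double deletion heads and 114 to 161 CPM in CSE-/- heads, the 1 edgeR call of 24 in its family, of which 18 were negative. By an unadjusted edgeR p under 0.05, 9 of this family were lower and 2 higher, and DESeq2 called 5 lower and 1 higher. The aquaporin Drip had 38.5 to 44.0 CPM in double deletion heads and 63.4 to 95.4 CPM in CSE-/- heads. CG30091, CG11905 and CG3513 fell by 2.47, 2.32 and 1.87 on the log2 scale, with at most 5.06 CPM in double deletion heads and 21.1 CPM in CSE-/- heads. Some genes were at or under 3 counts in every double deletion library: the small nuclear RNA gene snRNA:U2:34ABa was at least 16.97-fold lower, and asRNA:CR45009, ChLD3 and CG32572 were at least 5.32-, 5.72- and 6.29-fold lower, by the mean of the CSE-/- libraries over that floor, against levels of at most 5.63 CPM in CSE-/-. U2 genes occur in near-identical copies, so this value is uncertain.

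Several large groups held no call. None of the 80 cytosolic ribosomal proteins tested passed, although 69 had positive fold changes with a median of 0.35; on library totals 57 were positive with a median of 0.19. RpL5 and RpL8, the most abundant, had log2 fold changes of 0.24 and 0.50 (edgeR adjusted p = 0.699 and 0.483). For complex I of the respiratory chain 30 of 33 were positive (22 on library totals), with a median of 0.25; ND-39 and ND-51 had log2 fold changes of 0.39 and 0.17. An unadjusted edgeR p under 0.05 was reached by 1 ribosomal gene, upwards, and by no complex I gene, and DESeq2 called none of either list. Heat shock proteins (19 tested, median -0.20, 1 each way by unadjusted p), fat storage and fatty acid synthesis genes (18 tested, median -0.31, 2 each way) and Osiris genes (5 tested, median -0.25, 1 downwards) did not pass either; DESeq2 called 1 fat storage gene each way and none of the others. Their most abundant members Hsc70-4, Hsp60A, Desat1, AcCoAS, Osi2 and Osi24 had log2 fold changes of -0.31, 0.47, -0.41, -0.48, -0.74 and 0.08.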

How the data were processed

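RNA was prepared from male heads with RNAzol and libraries with a strand-specific mRNA kit (NEBNext Ultra II Directional), sequenced on a NextSeq 500. Per the submitters' notes and the study's methods, reads were trimmed with Trimmomatic, aligned to dm6 with STAR and counted per gene with featureCounts; versions, strand setting and annotation release are not given in the sources used here. The deposited files hold raw counts per gene as the authors made them, with between 88.0% and 91.3% of reads assigned in the 8 libraries. Counts were used as deposited, with summary lines left out. Of 17453 gene IDs, 17179 matched a symbol and position in the BDGP6 annotation.

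Genes were kept by filterByExpr, scaled by TMM and tested with edgeR 4.0.16 (R 4.3.3; quasi-likelihood F test, legacy fit), double deletion over CSE-/-, with Benjamini-Hochberg adjustment over all genes tested and a threshold of 0.05. SE was derived from the log2 fold change and its F statistic. CBS-/- against control and the difference between the effects were fitted likewise. In counts simulated for these 3 comparisons, 99.5%, 99% and 98% of 200 genes changed by 2 on the log2 scale were recovered. Each simulation also gave 11 false calls. The simulated counts had the same spread for every gene and no strain or library effects, so these shares do not measure power in the real libraries. DESeq2 1.42.0 and other alternatives appear in the closing section. Marker sums were compared by exact permutation of 56 arrangements. Where replicates did not come from separate cultures, p-values measure only the spread between these samples. The fits treated libraries as replicates of a genotype, although each strain gave several libraries. Their p-values mainly reflect the spread between libraries and cannot stand for the spread between independently made strains.

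Genes were named by rule: the 3 sulfur genes, the 12 largest called changes each way at a mean of 2 CPM or more, up to 4 called (or the 2 most abundant) members of each list, the 5 called genes with the smallest adjusted p for the difference between the effects, and called genes within 500 kb of CBS or CSE; all others were chosen after their values were seen. The members and lists were chosen with earlier results of these data known.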

Additional observations from a re-analysis of the deposited data

Results flagged for a closer look

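In 5 genes among the 62 named by rule, 1 double deletion library lay far from the other 4 by Dixon's criterion. Chance meets this criterion in about 1 in 20 groups, so some such genes are expected by chance. The 5 libraries also pool both double deletion strains. CBS-/-CSE-/-(1) replicate 2 had 2.81 CPM of Cbs, the highest of the double deletion. CBS-/-CSE-/-(1) replicate 3 was the highest for BomBc2 (3845 CPM), RpL5 (9940 CPM) and Osi2 (26.3 CPM), and CBS-/-CSE-/-(2) replicate 2 was the lowest for Desat1 (674 CPM).

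For 11 named genes the effect of losing CBS differed between flies without and with CSE, by a test of the difference over all 15 libraries. On the log2 scale, with edgeR adjusted p-values, the difference was -3.56 for NimC1 (0.00741), 3.49 for to (0.000567), 4.18 for TotC (0.00635), 1.73 for GstE7 (0.00635), 5.25 for CG31380 (0.000482), 5.15 for CG33346 (0.00118) and 2.75 for ACXD (0.00189). It was 15.3 for Jon65Ai (0.00144), 10.6 for Jon99Fi (0.0183), 9.77 for Jon44E (0.00251) and 6.81 for CG18179 (0.0230); these are gut proteases, some libraries were at or near 0, and the midgut marker sum was 235 to 667 CPM in CBS-/-(5) against 8570 to 23910 CPM in the control. Calls for to, CG31380, CG33346, ACXD, Jon65Ai and Jon44E were kept under all alternatives run for them, GstE7 and TotC lost theirs under 1, NimC1 under 2, and Jon99Fi and CG18179 under 4 and 5.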

How the results depend on the processing

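No called result changed direction under the alternatives run. For the double deletion against CSE-/-, RLE scaling, no filter on low counts, a minimum of 10 counts, the legacy setting, strains as separate groups, a joint fit of 15 libraries and thinning to equal depth left both counts of calls within 1.5 times of the values given. The genes called were not always the same. In the joint fit, 57 of its 94 lower calls were among the 68, and 57 of its 95 higher calls among the 98. DESeq2 gave 215 lower and 365 higher, and all of the 68 and 98 genes were among them. An adjusted p under 0.01 left 16 lower and 24 higher. CBS-/-CSE-/-(1) alone against CSE-/- gave 33 lower and 59 higher, and CBS-/-CSE-/-(2) alone 35 lower and 137 higher. Of the 59 and the 137 higher, 50 and 61 were among the 98. Library totals, an alternative chosen after seeing the data, gave 57 higher. Leaving out each library in turn gave 23 to 55 lower and 27 to 118 higher. Of the 118 higher without CSE-/- replicate 4, 64 were among the 98. For CBS-/- against control DESeq2 gave 766 lower and 423 higher, and leaving out each library (without WT replicate 3 and without CBS-/-(8) replicate 1 at the ends) gave 36 to 997 lower and 7 to 477 higher; for the difference between the effects DESeq2 gave 159 and 379, and leaving out each library 7 to 236 and 22 to 423. With a library left out, the midgut sum differed by 1.17 to 2.47 and the testis sum, with no call in any fit, by -1.33 to 1.08. The glia sum differed by -0.53 on library totals (exact permutation p = 0.0536) and by -0.368 to -0.254 with a library left out. Its exact permutation p reached 0.0571 without CBS-/-CSE-/-(1) replicate 3 and 0.0952 without CSE-/- replicate 3. With a library left out, the flight muscle sum differed by 0.0409 to 0.379 and the male reproductive tract sum by 0.363 to 0.652. The causes were not tested.

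With replicate number as a block, calls numbered 14 lower and 36 higher for the double deletion, 8 and 3 for CBS-/- against control and 11 and 30 for the difference. Deviations from the strain mean of same-numbered double deletion and CSE-/- libraries correlated at -0.0488, -0.602 and 0.0228, and those of differently numbered libraries at -0.392 to 0.584. The deviations of the 2 libraries of CBS-/-CSE-/-(2) mirror each other by construction. These few values cannot decide whether the numbers mark pairs. Low counts limit the genes under about 2 CPM, and 2 control libraries limit the comparisons that use them.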
